A study of Mus musculus with 21 samples.

Results

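The interferon-inducible antiviral effectors outside the OAS, Ifit and guanylate-binding families were followed as 10 genes: Rsad2, Cmpk2, Mx1, Mx2, Bst2, Ifitm3, Znfx1, Rnf213, Samd9l and Rtp4. They were found by gene symbol, with 1 row each, among the 31553 features of the deposited Neuro2a table and the 39008 features of the deposited mouse table. They were chosen by their measured levels in Neuro2a cultures with and without a guide RNA, so their values in that comparison are given as a description, without p-values.

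Neuro2a is an established mouse neuroblastoma line. The Neuro2a CRISPRa cultures (n = 6) received 750 ng of a plasmid for a guide RNA (sgRNA) to Scn2a, a neuronal sodium channel gene, together with 750 ng of a plasmid for sadCas9-VP64, a nuclease-dead Cas9 joined to a transcriptional activator. The Neuro2a VP64-only cultures (n = 6) received sadCas9-VP64 and no sgRNA. The labels mention no plasmid in place of the sgRNA plasmid, so the guide, its plasmid and the amount of DNA delivered cannot be told apart. The library names place replicates 4 to 6 of both groups in a set numbered 8 and replicates 1 to 3 in a set numbered 7, and they do not say what a set is.

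The mouse samples were cortical nuclei sorted for the neuronal protein NeuN, each from 200 mg of cortex, on a C57BL/6J background. Het CRISPRa mice (n = 3) were Scn2a+/- and received 500 nL of rAAV for sgRNA and sadCas9-VP64 at equal parts in the medial prefrontal cortex 4 weeks earlier. Het mice (n = 3) were Scn2a+/- and WT mice (n = 3) carried the wild-type gene; the labels do not say whether either was injected. The labels do not say that replicates came from separate cultures, so a p-value here reflects how far these libraries scatter, and that scatter can be technical.

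These genes belong to the programme switched on by type I interferon. Interferon binds the Ifnar1 and Ifnar2 receptor, the kinases Jak1 and Tyk2 activate a complex that holds Stat2 and Irf9, and this complex binds interferon-stimulated response elements, built from repeats of the letters GAAA. Irf3 and Irf7, turned on by sensors of foreign nucleic acid, can act on the same elements. Neurons and neuron-like cells are known to use the programme against neurotropic viruses.

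The promoters are shown as a description, because these elements are where the interferon factors bind. Of the 10 genes, 7 had promoter windows in the RefSeq table for GRCm38.p6 (8 windows of 300 bases, reaching 250 bases before the annotated start). The windows were searched on both strands for GAAANNGAAA and GAAANNNGAAA. A match was found in 4 of the 8 windows, those of Rsad2, Bst2, Ifitm3 and Samd9l, against 5.99% of the 32851 windows in the table. The stretches that hold the matches are printed from 5′ to 3′ on the strand of the gene, with the matching letters in capitals. The deposited files use another build, mm39, so these positions hold for GRCm38.p6 alone.
Rsad2, chr12:26456521-26456602, minus strand: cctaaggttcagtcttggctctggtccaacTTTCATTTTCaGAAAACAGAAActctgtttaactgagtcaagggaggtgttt
Bst2, chr8:71537557-71537632, minus strand: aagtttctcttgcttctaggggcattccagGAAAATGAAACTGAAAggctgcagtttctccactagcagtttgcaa
Ifitm3, chr7:141010713-141010742, minus strand: GAAAAGGAAActtctgaGAAACCGAAActg
Samd9l, chr6:3399522-3399540, minus strand: GAAACTGGAAActgaagca
In Rsad2 a match on each strand lay upstream of the start, 1 base apart. In Bst2 a pair of overlapping matches shared a GAAA upstream of the start. The pair in Ifitm3 and the match in Samd9l lay just downstream of it. The windows of Cmpk2, Znfx1 and Rnf213 did not hold these letters. A match is a description of the sequence, and its use in these cells was not tested. The members were picked as interferon-inducible genes, so nothing is read from the count of windows with a match.

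Depth, estimated from the CPM value that 1 read was worth, was 15.5 M to 21.0 M reads (M, 1000000) in the Neuro2a libraries and 15.5 M to 20.1 M in the mouse libraries. Scn2a, the targeted gene, had 4.09 to 5.02 CPM in CRISPRa libraries, against 2.86 to 3.16 CPM in VP64-only libraries of set 8, and 4.53 to 5.33 CPM in CRISPRa libraries, against 2.84 to 3.46 CPM in VP64-only libraries of set 7. In nuclei Scn2a had 258 to 291 CPM in Het CRISPRa, 203 to 260.3 CPM in Het and 229.5 to 266 CPM in WT, and the 3 ranges overlapped. The 9 sympathetic neuroblastoma markers were above 0 in all 12 Neuro2a libraries, and the 8 neuronal markers were above 0 in all 9 mouse libraries. Some markers of each list were above 0 in the other kind of sample too. The neuroblastoma markers summed to 1953 to 2466 CPM in Neuro2a libraries and 9.07 to 19.5 CPM in nuclei. The neuronal markers summed to 278 to 403 CPM in Neuro2a libraries and 2824 to 3266 CPM in nuclei. Transcripts of the delivered genes differed between sets and are given beside the set comparison.

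In Neuro2a cells the antiviral effectors stood higher in CRISPRa than in VP64-only cultures, by up to 2.15 on the log2 scale for Samd9l and 2.04 for Mx1. The lowest value of any of the 10 in any library was 14.9 CPM, for Samd9l, so none was near the limit of detection. Counted across both sets, 9 of the 10 passed an adjusted p of 0.05 in limma's moderated test, all of them higher in CRISPRa, where 15.0% of the 14398 genes tested passed and 10.0% passed as higher. Because the members were chosen by this contrast, nothing is read from that count. Over all genes 1443 passed as higher and 723 as lower, and with the libraries rescaled by the median of ratios 1059 passed as higher and 1101 as lower. Every CRISPRa library was above every VP64-only library for 6 of the 10 (5.74% of all genes), for 10 within set 8 (21.9% of all genes) and for 9 within set 7 (34.6% of all genes), and nothing is read from these counts either. The median log2 change of the 10 was 0.94, beside 0.06 for all genes tested. In the authors' deposited table, the log2 fold change ran from 0.15 for Ifitm3 to 1.94 for Samd9l. A higher level in each cell and a larger share of cells expressing the genes cannot be told apart in these bulk samples.

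**Figure D1:**
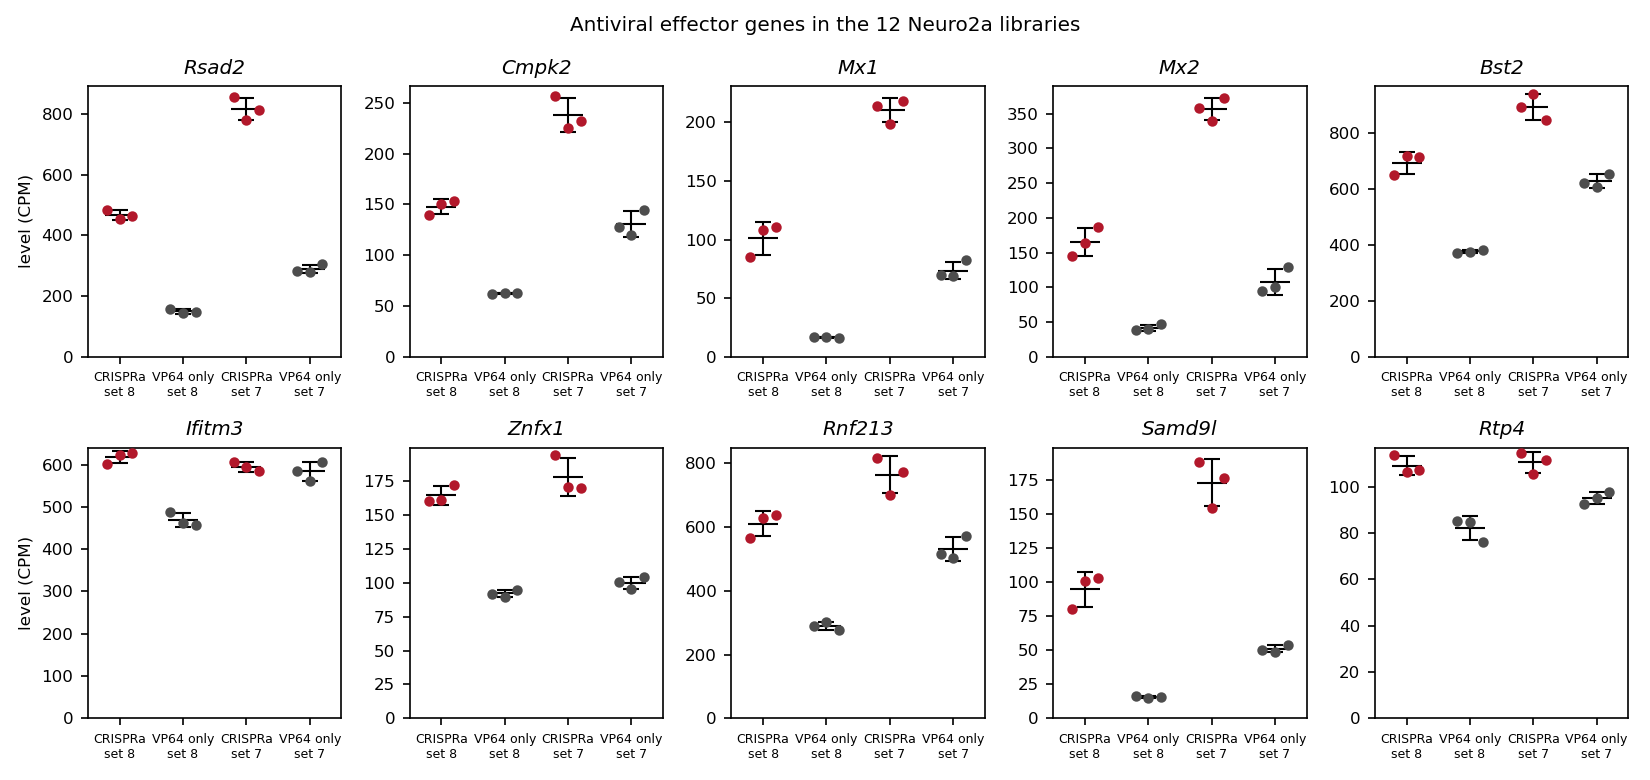
Level in CPM (vertical axes, starting at 0) of each of the 10 genes in the 12 Neuro2a libraries, with points for libraries, CRISPRa in red and VP64 only in grey, and bars for the mean ± SD of 3 libraries. Within set 8 the CRISPRa points lie above the VP64-only points for all 10 genes, and within set 7 for all but Ifitm3.

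The genes that act on nucleotides stood next to each other on chromosome 12. Rsad2 encodes viperin, a radical SAM enzyme that makes a chain-terminating nucleotide, and Cmpk2 encodes a mitochondrial nucleoside monophosphate kinase. Rsad2 had 485, 453 and 465 CPM in CRISPRa libraries of set 8, against 159, 144 and 148 CPM in VP64-only libraries. In set 7 it had 856, 781 and 812 CPM in CRISPRa libraries, against 284, 280.3 and 306 CPM in VP64-only libraries. Every CRISPRa library was above every VP64-only library, and both groups were higher in set 7. The log2 change over both sets was 1.56 ± 0.24 (SE). Cmpk2 had 140.0, 150.2 and 153 CPM in CRISPRa libraries of set 8, against 62.3, 62.5 and 63.0 CPM in VP64-only libraries. Its set 7 libraries had 257, 225 and 232 CPM in CRISPRa libraries, against 128, 119.7 and 144 CPM in VP64-only libraries. The groups were apart within each set, but the CRISPRa libraries of set 8 overlapped the VP64-only libraries of set 7, and the change over both sets was 1.05 ± 0.25.

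Mx1 and Mx2 encode dynamin-like GTPases that block the replication of incoming viruses, Mx1 in the nucleus and Mx2 in the cytoplasm in mice. Most inbred laboratory strains carry defective Mx genes, and GENCODE M21 lists Mx2 as a polymorphic pseudogene, so RNA here does not show that a working protein is made. Mx1 had 85.1, 108 and 111 CPM in CRISPRa libraries of set 8, against 16.7, 16.9 and 16.1 CPM in VP64-only libraries. In set 7 Mx1 had 214, 199 and 218 CPM in CRISPRa libraries, against 69.4, 68.9 and 82.2 CPM in VP64-only libraries. The lowest Mx1 value in a CRISPRa library, 85.1 CPM, was just above the highest in a VP64-only library, 82.2 CPM, and these came from different sets. Mx2 had 145, 164 and 186 CPM in CRISPRa libraries of set 8, against 38.5, 39.6 and 46.7 CPM in VP64-only libraries. For set 7 the Mx2 levels were 357, 339.8 and 372 CPM in CRISPRa libraries, against 94.1, 99.8 and 129 CPM in VP64-only libraries. Neither gene overlapped between groups, with log2 changes of 2.04 ± 0.46 for Mx1 and 1.85 ± 0.35 for Mx2. The estimated reads of both genes, and those of Rnf213, were not whole numbers within 0.01 in any of the 12 Neuro2a libraries. Those of Ifitm3 were whole within 0.01 in CRISPRa replicate 2 alone. How reads shared by the 2 Mx paralogues were counted is not given in the sources used here.

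Bst2 and Ifitm3 act at membranes: Bst2 (tetherin) holds budding virions on the cell surface and Ifitm3 blocks the fusion of viruses in endosomes. Bst2 had 649.7, 718 and 716 CPM in CRISPRa libraries of set 8, against 373, 375 and 384 CPM in VP64-only libraries. In set 7 Bst2 had 895, 941 and 848 CPM in CRISPRa libraries, against 623, 606 and 655 CPM in VP64-only libraries. The groups were apart within each set and touched across sets, where 649.7 CPM in a CRISPRa library lay below 655 CPM in a VP64-only library. The log2 change of Bst2 was 0.69 ± 0.16. Ifitm3 had 602, 623 and 628 CPM in CRISPRa libraries, against 487, 461 and 457 CPM in VP64-only libraries of set 8, and these groups were apart. Its set 7 libraries had 607, 593 and 585 CPM in CRISPRa libraries, against 585, 561 and 605 CPM in VP64-only libraries, which overlapped. Ifitm3 was the member outside the 9 that passed, with a log2 change of 0.21 ± 0.07. With the replicate number as a block it passed as well, which brought the count to 10, where 31.3% of all genes passed under the same block.

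Znfx1, Rnf213 and Samd9l encode large proteins that act inside the cell. Znfx1 is a helicase that binds viral RNA at mitochondria, Rnf213 is a ubiquitin ligase with ATPase domains, and Samd9l restricts poxviruses and slows translation. Znfx1 had 161, 161 and 173 CPM in CRISPRa libraries of set 8, against 92.0, 89.9 and 95.1 CPM in VP64-only libraries. In set 7 Znfx1 had 195, 171 and 169.9 CPM in CRISPRa libraries, against 100.5, 95.2 and 104 CPM in VP64-only libraries. Its levels were close between sets in both groups, and its log2 change of 0.83 ± 0.06 had the smallest SE of the 10. Rnf213 had 565, 629 and 637 CPM in CRISPRa libraries of set 8, against 288, 304 and 278 CPM in VP64-only libraries. For set 7 the Rnf213 levels were 817, 702 and 773 CPM in CRISPRa libraries, against 516, 504 and 573 CPM in VP64-only libraries. It was apart within each set and touched across them, with a change of 0.80 ± 0.19. Samd9l had 80.3, 101 and 103 CPM in CRISPRa libraries of set 8, against 16.3, 14.9 and 15.6 CPM in VP64-only libraries. Its set 7 libraries had 188, 155 and 177 CPM in CRISPRa libraries, against 50.3, 48.9 and 54.2 CPM in VP64-only libraries. Samd9l had the largest log2 change over both sets, 2.15 ± 0.37, with no overlap. Znfx1 overlaps the antisense transcript Zfas1 and Rnf213 the antisense transcript A930037H05Rik, and whether the counting used strand is not given in the sources used here.

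Rtp4 encodes a Golgi chaperone of receptors that binds viral replication complexes. It had 114, 107 and 107 CPM in CRISPRa libraries of set 8, against 85.3, 84.8 and 76.4 CPM in VP64-only libraries. In set 7 Rtp4 had 114, 106 and 112 CPM in CRISPRa libraries, against 92.6, 95.0 and 97.7 CPM in VP64-only libraries. Every CRISPRa library was above every VP64-only library, by a log2 change of 0.31 ± 0.06, the smallest among the 9 that passed. Its position overlaps Masp1 on the other strand and Gm45338 on the same strand. Masp1 had 64.5 CPM in CRISPRa libraries, against 93.5 CPM in VP64-only libraries on average, a log2 change of -0.61 ± 0.22 that did not pass (adjusted p = 0.0822, limma).

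Per kilobase of exon (GENCODE M21 lengths), the membrane proteins had the highest levels. In CRISPRa cultures of set 8, Ifitm3 had 911 ± 20.7 and Bst2 769 ± 43.0 CPM per kb (SD, n = 3), and Rsad2 came next at 108 ± 3.68 CPM per kb. Rtp4 (51.2 ± 1.89) and Mx2 (45.7 ± 5.67) followed without clearly separate spreads, then Rnf213 (36.2 ± 2.34) and Cmpk2 (35.5 ± 1.67), whose spreads overlapped, and Mx1 (26.8 ± 3.72). Znfx1 (20.1 ± 0.84) and Samd9l (17.5 ± 2.32) were lowest, again with overlapping spreads. In VP64-only cultures of set 8, Ifitm3 (691 ± 24.2) and Bst2 (418 ± 6.34) stayed on top, while Mx1 (4.38 ± 0.11) and Samd9l (2.87 ± 0.12) were at the bottom.

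The size of the guide effect, here the difference between CRISPRa and VP64-only cultures, was also set out by library set. The name does not separate the guide from its plasmid or the amount of DNA delivered. The members were selected for their Neuro2a levels by group and by set, and interferon genes were already known to move more in set 8, so these values too are a description, given without p-values. On the log2 scale, the guide effect stood higher in set 8 than in set 7 past the adjusted threshold for 6 of the 10 genes: Mx1, Samd9l, Rnf213, Ifitm3, Bst2 and Cmpk2. Among all genes tested, 21.8% were past it in either direction and 9.42% with a larger effect in set 8, and nothing is read from the members' count. Over all genes these were 1357 with a larger and 1775 with a smaller effect in set 8, against 1792 and 1281 with median-of-ratios scaling. Mx1 changed by 2.57 ± 0.08 in set 8 and 1.51 ± 0.08 in set 7, a difference of 1.05 ± 0.11 (SE). Samd9l changed by 2.56 ± 0.08 in set 8 and 1.75 ± 0.08 in set 7, a difference of 0.81 ± 0.12. The differences were 0.55 ± 0.08 for Rnf213, 0.37 ± 0.06 for Ifitm3, 0.37 ± 0.07 for Bst2 and 0.37 ± 0.09 for Cmpk2. Ifitm3 changed by 0.40 ± 0.04 in set 8 and 0.03 ± 0.04 in set 7.

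For the remaining genes the effects in the 2 sets were closer. Znfx1 changed by 0.83 ± 0.05 in set 8 and 0.83 ± 0.05 in set 7. The differences were 0.14 ± 0.07 for Rsad2, 0.23 ± 0.13 for Mx2 and 0.19 ± 0.07 for Rtp4. When libraries were rescaled by the median of ratios, Rsad2 (0.19) and Rtp4 (0.24) were past the threshold too. Of all genes tested 21.3% were past it in either direction with this scaling.

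**Figure D2:**
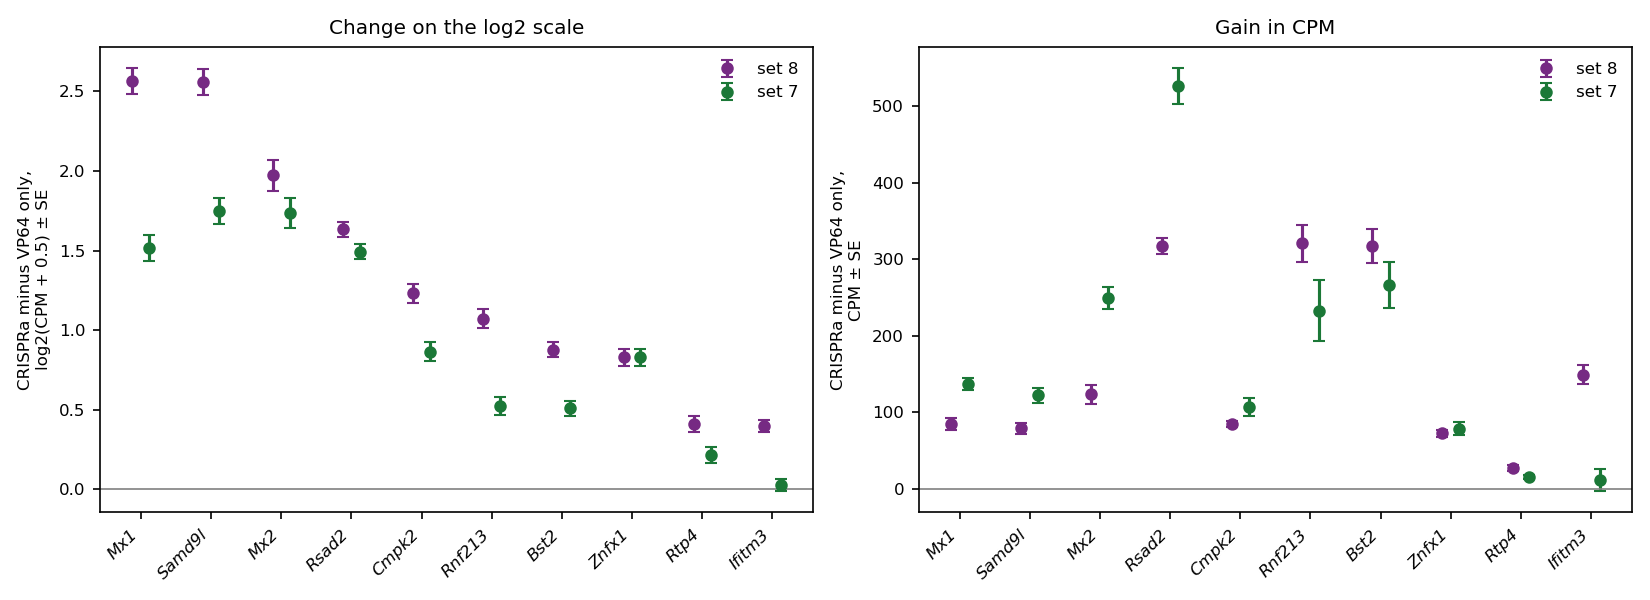
Difference between CRISPRa and VP64-only cultures for each gene in set 8 (purple) and set 7 (green), as log2(CPM + 0.5) on the left and as CPM on the right, each ± SE with 3 libraries per group and set. On the left the set 8 points lie at or above the set 7 points, while on the right 6 genes lie higher in set 7, by over 2 SE for Rsad2, Mx1, Mx2 and Samd9l and by less for Cmpk2 and Znfx1.

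Counted in CPM rather than as a fold, the order of the sets turned round for several genes. This way of looking at the data was chosen after the values were seen and is given without a test. The share of all genes whose gains differ by over 2 SE was not worked out. Nothing about the members as a set is therefore read from how many did so. Rsad2 gained 317 ± 10.2 CPM (SE) in set 8 and 526.5 ± 23.2 CPM in set 7. Mx2 gained 123 ± 12.1 CPM in set 8 and 249 ± 14.2 CPM in set 7. Mx1 gained 84.7 ± 8.14 CPM in set 8 and 137 ± 7.40 CPM in set 7, and Samd9l gained 79.1 ± 7.27 CPM in set 8 and 122 ± 9.96 CPM in set 7. In these 4 genes the gain was larger in set 7 by over 2 SE. The gain was larger in set 8 by over 2 SE for Ifitm3 and Rtp4. Ifitm3 gained 149 ± 12.5 CPM in set 8 and 11.3 ± 14.4 CPM in set 7, and Rtp4 gained 27.0 ± 3.72 CPM in set 8 and 15.4 ± 3.0 CPM in set 7. For Cmpk2, Bst2, Znfx1 and Rnf213 the gains differed by under 2 SE.

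The level without a guide stood lower in set 8, and this too is given as a description. In VP64-only cultures 9 of the 10 genes were past the adjusted threshold as lower in set 8 than in set 7, as were 25.9% of all genes tested, with 45.7% past it in either direction. Mx1 averaged 16.6 ± 0.40 CPM in set 8 and 73.5 ± 7.55 CPM in set 7 (SD, n = 3 each), a log2 difference of -2.11 ± 0.08. Samd9l averaged 15.6 ± 0.67 CPM in set 8 and 51.1 ± 2.72 CPM in set 7, a log2 difference of -1.68 ± 0.08. The log2 differences of Mx2, Cmpk2, Rsad2, Rnf213 and Bst2 were -1.35, -1.05, -0.95, -0.87 and -0.73, and those of Ifitm3 and Rtp4 were -0.32 and -0.21. Znfx1 was not past it, at -0.11 ± 0.05. In CRISPRa cultures 7 of the 10 were past it as lower in set 8, as were 33.4% of all genes. Those not past it there were Ifitm3 (0.05), Znfx1 (-0.11) and Rtp4 (-0.02).

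The delivered transcripts moved with the sets as well. The sadCas9-VP64 transcript had 564 to 632 CPM in CRISPRa libraries, against 318 to 369.8 CPM in VP64-only libraries of set 8. In set 7 it had 1683 to 2154 CPM in CRISPRa libraries, against 2498 to 2646 CPM in VP64-only libraries. The mCherry-puro transcript had 1574 to 1927 CPM in CRISPRa cultures of set 8 and 4626 to 5782 CPM in those of set 7, and it was listed at 0 in all VP64-only cultures. Their part in the antiviral levels was not tested. Markers of infiltrating leukocytes summed to no more than 0.445 CPM in any Neuro2a library. Of 12 microglia and macrophage markers 4 to 6 were above 0, summing to 182 to 192 CPM in CRISPRa libraries, against 174 to 180.3 CPM in VP64-only libraries of set 8, and to 126 to 139.6 CPM in CRISPRa libraries, against 126 to 138 CPM in VP64-only libraries of set 7.

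Upstream of the effectors, the interferon genes themselves were hardly seen. Of 12 interferon ligand genes 1 could be read in the Neuro2a table, Ifnb1, at no more than 0.12 CPM in any CRISPRa library and listed at 0 in every VP64-only library, below the 3 reads that correspond to 0.143 to 0.193 CPM. The receptor subunit Ifnar1 averaged 83.3 ± 3.46 CPM in CRISPRa libraries, against 82.5 ± 4.24 CPM in VP64-only cultures (SD, n = 6 each). Of 20 receptor and signalling genes tested, 9 were higher in CRISPRa and none was lower in limma, with a median log2 change of 0.21. Over all genes tested 10.0% were higher and 5.02% lower, with a median of 0.06. Large changes were seen in the feedback inhibitor Socs1 (1.06), in Irf7 (1.05) and in Stat2 (1.03). Irf7 averaged 222 CPM in CRISPRa libraries, against 71.7 CPM in VP64-only libraries of set 8, and 273 CPM in CRISPRa libraries, against 196 CPM in VP64-only libraries of set 7.

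Of 32 other antiviral restriction genes tested, 23 were higher and none was lower, with a median log2 change of 0.56. The shares over all genes tested were 10.0% higher and 5.02% lower. Trim30a (2.46), Ddx60 (2.20), Slfn5 (2.08) and Sp100 (2.01) changed most. These lists too were drawn up with results of these data known and are no independent evidence. Relatives of the members by protein family, most of them not known as interferon-inducible, had a median log2 change of 0.03 over 19 tested genes. Of these 2 were higher and 2 lower, and nothing is read from these counts. Upf1, a helicase of RNA decay, and Mocs1, a radical SAM enzyme of molybdenum cofactor synthesis, were the 2 higher, each at 0.40. Ifitm10 (0.49) and Dtymk (0.29) did not pass.

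**Figure D3:**
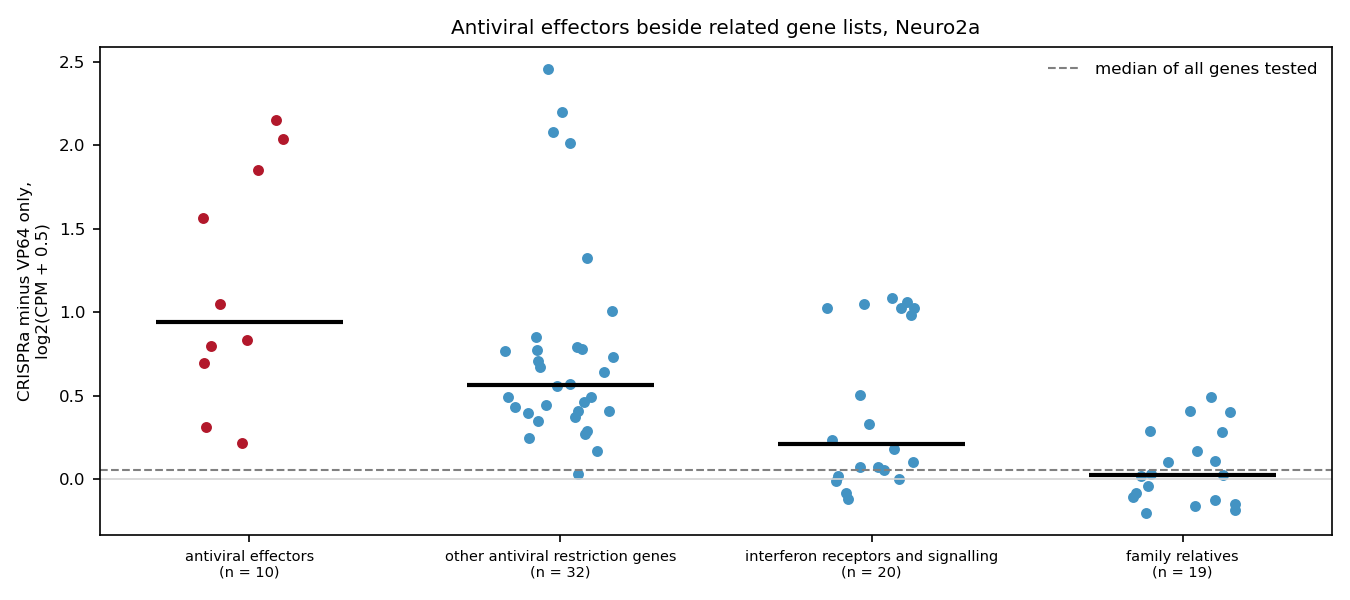
Log2 change between CRISPRa and VP64-only Neuro2a cultures for each tested gene (points) of the 10 antiviral effectors and 3 related lists, with the list median (bar) and the median of all genes tested (dashed line). The medians are 0.94 for the effectors, 0.56 for other restriction genes, 0.21 for receptors and signalling and 0.03 for family relatives.

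Most genomic neighbours of the members did not pass the test. Of all genes tested 15.0% passed in either direction, so nothing is read from this. Of the protein-coding genes next to a member and not members themselves, Tmprss2, a serine protease gene beside Mx2, passed: it averaged 2.0 CPM in CRISPRa libraries, against 0.887 CPM in VP64-only libraries, a log2 change of 0.81 ± 0.22 (adjusted p = 0.0251, limma). Rnf144a (-0.20), Sox11 (-0.10), Bace2 (0.12), Ddx27 (0.06), Slc26a11 (-0.02), Endov (0.21) and Mvb12a (0.14) did not pass. Fam3b, Ccdc194, Ifitm1, Ifitm6 and Hepacam2 were below the filter, with means of no more than 0.202 CPM in either group.

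Likeness of pattern was measured as Pearson's r of log2(CPM + 0.5) over the 12 Neuro2a libraries, among 12104 genes with a mean of at least 2 CPM. The libraries form 4 clusters of group and set, so r mostly reflects the spacing of these clusters and carries no p-value. Most like the mean of the members were Zbp1 (r = 0.997), a sensor of Z-form nucleic acid, then Csprs (0.995), Irgm2, Parp10 and Parp12. The closest single partners were Ifit1 for Rsad2 (0.998), Igtp for Cmpk2 (0.998), Xaf1 for Mx1, Dhx58 for Mx2, Ifit3 for Bst2, Parp12 for Rnf213 and Zbp1 for Samd9l (0.999). Lgals9 was closest to Ifitm3 (0.968), Parp14 to Rtp4 (0.977) and the histone gene H2bc4 to Znfx1 (0.983).

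In sorted cortical nuclei the antiviral effectors were mostly low, and none passed the test between groups. Of the 10, 6 reached 0.5 CPM in at least 3 libraries and were tested: Cmpk2, Mx2, Znfx1, Rnf213, Samd9l and Rtp4. None of the 6 passed in Het CRISPRa against Het, where 0.0422% of 18967 genes passed, in Het CRISPRa against WT, where 0.00527% passed, or in Het against WT, where 0% passed (limma, adjusted p of 0.05). At an unadjusted p of 0.05, 5.25%, 1.77% and 5.01% of all genes passed in these comparisons, and Rnf213 was the member that did so, in the first 2 of them. Among the members with an adjusted p in the authors' deposited tables, none was under 0.05 in these comparisons. Their unadjusted p (DESeq2) was under 0.05 for Rnf213 in the first 2 comparisons and for some other members. These were Mx1 (0.0366) and Mx2 (0.0448) against Het and Mx2 (0.0420) against WT. The share of all genes under 0.05 unadjusted in the authors' tables was not worked out. The first 2 comparisons share the Het CRISPRa libraries.

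Rnf213 had 19.4, 6.14 and 10.4 CPM in Het CRISPRa, 5.28, 5.69 and 5.62 CPM in Het and 5.01, 4.21 and 5.15 CPM in WT. Every Het CRISPRa library was above every Het and WT library, but replicate 1 was far above the other 2. Groups were apart in this direction for 5.37% of genes against Het and 2.68% against WT. The log2 change was 0.91 ± 0.31 against Het (adjusted p = 0.810, limma) and 1.10 ± 0.31 against WT (adjusted p = 1.00, limma, with an unadjusted p of 0.00391). Without Het CRISPRa replicate 1 it was 0.50 against Het and 0.69 against WT, and without Het CRISPRa replicate 2 it was 1.29 against Het and 1.48 against WT. The authors' deposited table gave a log2 fold change of 1.09 with SE 0.35 against Het (adjusted p = 0.342, DESeq2) and 1.35 with SE 0.32 against WT (adjusted p = 0.0768, DESeq2). Het libraries were also all above WT libraries for Rnf213, as 3.37% of genes were, with a log2 change of 0.19 ± 0.31 (adjusted p = 0.930, limma).

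Het CRISPRa replicate 1 also had the highest value of the 9 libraries for Mx1, Mx2, Bst2, Samd9l and Rtp4. This makes 4 of the 6 tested members and 6 of all 10, while 6.83% of all genes tested had their highest value there. This library was singled out after its values were seen, and the count is a description. Mx2 had 5.69, 0.682 and 1.84 CPM in Het CRISPRa, 0.711, 1.09 and 1.39 CPM in Het and 0.596, 1.82 and 1.03 CPM in WT. Samd9l had 7.35, 5.15 and 1.23 CPM in Het CRISPRa, 2.85, 2.18 and 1.84 CPM in Het and 2.09, 2.28 and 3.47 CPM in WT. Both genes overlapped between all groups. Mx2 had a log2 change of 0.74 ± 0.50 against Het (adjusted p = 0.810, limma), which was 0.11 without Het CRISPRa replicate 1 and 1.31 without Het CRISPRa replicate 2. Samd9l had a log2 change of 0.62 ± 0.45 against Het (adjusted p = 0.810, limma), which was 0.18 without Het CRISPRa replicate 1 and 1.27 without Het CRISPRa replicate 3. Against WT the changes were 0.71 ± 0.50 for Mx2 and 0.47 ± 0.45 for Samd9l, and 0.080 and 0.030 without replicate 1. They were 1.27 for Mx2 without replicate 2 and 1.12 for Samd9l without replicate 3. The sadCas9-VP64 transcript had 7.12, 4.09 and 4.4 CPM in the Het CRISPRa libraries and was listed at 0 in Het and WT. Its part in the values of replicate 1 was not tested.

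**Figure D4:**
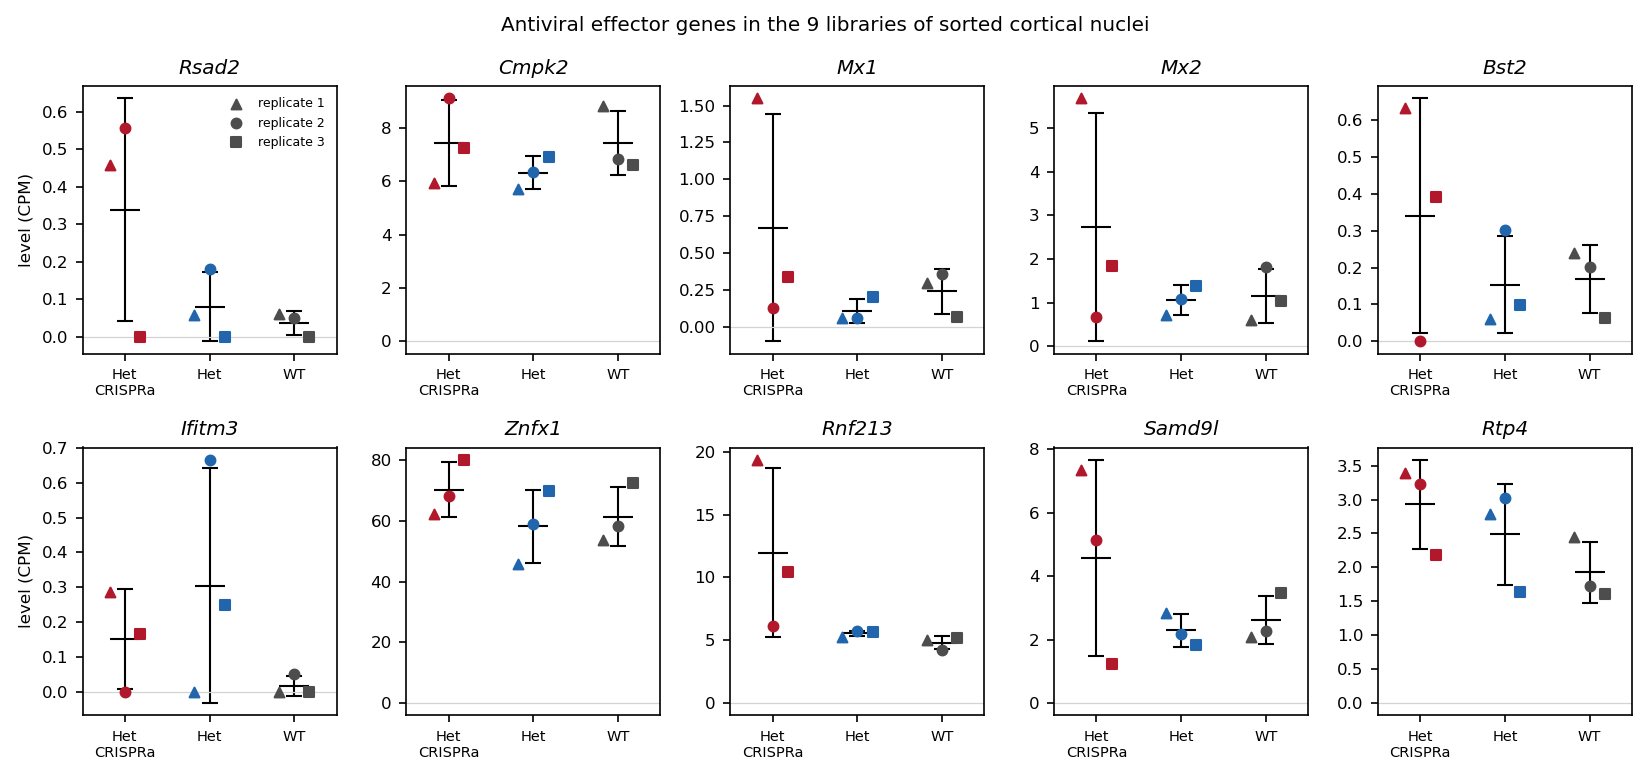
Level in CPM (vertical axes) of each of the 10 genes in the 9 libraries of sorted nuclei, with Het CRISPRa in red, Het in blue and WT in grey, a symbol for each replicate number and bars for the mean ± SD of 3 libraries. Het CRISPRa replicate 1 (red triangle) is highest for Mx1, Mx2, Bst2, Rnf213, Samd9l and Rtp4, and the groups overlap for every gene but Rnf213.

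Znfx1 was the most abundant of the 10 in nuclei. It averaged 70.3 ± 9.10 CPM in Het CRISPRa, 58.3 ± 12.0 CPM in Het nuclei and 61.5 ± 9.84 CPM in WT nuclei (SD, n = 3 each). Its log2 change was 0.28 ± 0.16 against Het (adjusted p = 0.810, limma) and 0.20 ± 0.16 against WT (adjusted p = 1.00, limma). Cmpk2 averaged 7.43 ± 1.61 CPM in Het CRISPRa, 6.32 ± 0.61 CPM in Het and 7.43 ± 1.21 CPM in WT. Rtp4 averaged 2.93 ± 0.66 CPM in Het CRISPRa, 2.49 ± 0.74 CPM in Het and 1.93 ± 0.45 CPM in WT, and its groups overlapped as those of Cmpk2 did. Per kilobase Znfx1 was first in all 3 groups (8.58, 7.11 and 7.51 CPM per kb in Het CRISPRa, Het and WT), followed by Cmpk2 and Rtp4.

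Rsad2, Mx1, Bst2 and Ifitm3 were too low to be tested. Rsad2 had an estimated 8, 9 and 0 reads in Het CRISPRa, 1, 3 and 0 in Het and 1, 1 and 0 in WT. Mx1 had 27, 2 and 6 reads in Het CRISPRa, 1, 1 and 4 in Het and 5, 7 and 1 in WT. Bst2 had 11, 0 and 7 reads in Het CRISPRa, 1, 5 and 2 in Het and 4, 4 and 1 in WT. Ifitm3 had 5, 0 and 3 reads in Het CRISPRa, 0, 11 and 5 in Het and 0, 1 and 0 in WT. The groups overlapped for each of these 4 genes, and most values lay near the 3 reads below which a gene counts as not detected here, which is 0.149 to 0.193 CPM.

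Markers of other cells that the sorted nuclei could hold were summed beside these levels. The 12 microglia and macrophage markers summed to 39.2 to 42.5 CPM in Het CRISPRa, 37.1 to 57.3 CPM in Het and 34.5 to 49.1 CPM in WT, with all 12 above 0 in every library. Of 8 markers of infiltrating leukocytes 7 were in the table, summing to 3.74 to 6.26 CPM in Het CRISPRa, 1.48 to 7.31 CPM in Het and 2.58 to 7.91 CPM in WT. Neither sum was higher in all Het CRISPRa libraries than in the other groups. The part of these cells in the antiviral levels was not tested. Beyond the members, none of the 22 other restriction genes, 20 receptor and signalling genes and 19 family relatives tested in nuclei passed in any of the 3 comparisons (limma, adjusted p of 0.05).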

How the data were processed

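PolyA RNA-seq values were analysed as deposited. The authors deposited CPM (counts per 1000000 reads) for 12 Neuro2a and 9 mouse libraries, and no per-sample column was left unused. Per the submitters' processing notes, STAR 2.7.8a, featureCounts, DESeq2 1.44 and R 4.4 were used with the build mm39/GRCm39. The authors' deposited comparison tables give a mean normalized signal, a log2 fold change with its SE (held as a score) and p-values. Dividing each CPM by the worth of 1 read gave whole numbers, within 0.01, for 70.8% to 73.2% of Neuro2a and 79.9% to 82.4% of mouse values, so no count test was run. Estimated depths were 15.5 M to 21.0 M reads (15.5 M to 20.1 M in mice), and the floors of 3 reads cover counting error only. Each ± is an SD between libraries or an SE from the scatter of libraries.

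Genes reaching 0.5 CPM in 6 or more Neuro2a or 3 or more mouse libraries were fitted in limma 3.58.1 (R 4.3.3) as log2(CPM + 0.5) with eBayes and a trend, leaving out the 2 delivered genes; fold changes on this scale understate the change of low genes. P-values were adjusted by Benjamini and Hochberg over all genes tested, two-sided, at 0.05. The guide contrast used all 12 Neuro2a libraries without a block, so its SEs also hold the difference between sets. For Mx1 the SE was 0.46 over both sets and 0.08 within each set. With the set as a covariate 39.5% of all genes passed, against 15.0% without it. The set comparisons used a mean for each group in each set, and the mouse contrasts shared 1 spread over 3 groups. The fits were tested on simulated data. Each simulated gene had independent scatter around a common mean, apart from added changes, so the clustering of libraries by set was not covered.

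In Neuro2a, same-numbered libraries deviated together (r of 0.305 to 0.499 over 6 pairs with group means removed), because numbers 1 to 3 belong to set 7 and 4 to 6 to set 8; with set means removed r was -0.07 to 0.02. In mice r was -0.0844 to 0.0239 for Het CRISPRa with Het and -0.11 to 0.109 for Het CRISPRa with WT. It was higher for Het with WT, 0.0339 to 0.418 over 3 pairs, and the mouse contrasts were fitted without a block. With the replicate block Het minus WT gave 2 genes, against 0 without it, and no member was among them.

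The members and gene lists were chosen with earlier results of these data known. Named were all 10 members, the 4 tested genes of each list with the largest guide change, the genes most like the members and their nearest protein-coding neighbours; some of these are not reported here. Alternatives were other pseudocounts, filters, scalings, the block, each set alone and each library left out. Exon lengths, overlaps and neighbours came from GENCODE M21 (GRCm38), promoters from RefSeq GRCm38.p6.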

Additional observations from a re-analysis of the deposited data

Results flagged for a closer look

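The guide effect in Neuro2a cells stood higher in set 8 than in set 7 for 6 of the 10 antiviral effectors, past the threshold of the limma fit of the difference, as 9.42% of all genes did. The genes were selected for their Neuro2a levels by group and by set, with the larger change of interferon genes in set 8 known, so this is a description and no independent evidence. On the log2 scale the effect was larger in set 8 than in set 7 by 1.05 for Mx1, 0.81 for Samd9l, 0.55 for Rnf213, 0.37 for Ifitm3, 0.37 for Bst2 and 0.37 for Cmpk2. In CPM the gains of Mx1 and Samd9l were smaller in set 8.

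Among the 20 groups of 6 Neuro2a libraries examined, 1 held a library far from the others. Znfx1 in CRISPRa replicate 1 (195 CPM, the next being 173 CPM) stood off by 0.649 of the range of its group. The share of about 1 in 20 groups that chance gives assumes libraries of 1 kind, and these groups are made of 2 sets whose levels differ, so it does not hold here.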

How the results depend on the processing

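Direction in the guide contrast was higher in CRISPRa for all 10 genes under every setting run. The members were chosen by this contrast, so nothing is read from this direction or from the counts of members passing. The median log2 change of the 10 (0.94) was 1.15 in set 8 alone, 0.85 in set 7 alone and 0.88 to 1.05 with a library left out. The count of members passing was 9 to 10 with a library left out, and 10 with the replicate block, with the set as a covariate, with quantile scaling or in set 8 alone. Of all genes, in either direction, 10.5% to 16.9% passed with a library left out and 31.3% with the replicate block. The shares were 39.5% with the set as a covariate, 14.4% with quantile scaling and 24.1% in set 8 alone. Over all genes, the guide contrast gave 1443 higher and 723 lower genes, against 1059 and 1101 with median-of-ratios scaling, 1058 and 1015 with quantile scaling and 1068 and 502 without a filter. The replicate block, whose pairing in Neuro2a is that of the sets, gave 2865 and 1648, and the set as a covariate 3593 and 2092. With the replicate block in the set comparison and in the mice, the calls of members did not change.

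For the difference between sets, 6 to 7 members passed with a library left out, where 16.8% to 22.9% of all genes passed in either direction. Nothing is read from this count. Without CRISPRa replicate 1 or without VP64-only replicate 4, Rtp4 was the one that passed in addition. Changes of sign touched only values that had not passed: Znfx1 between sets (0.050 with median of ratios, -0.035 to 0.064 with a library left out), Rsad2 between sets (-0.028 with quantile scaling), Cmpk2 in Het CRISPRa minus WT (0.011 with median of ratios, 0.046 with quantile scaling, -0.16 to 0.13 with a library left out), and Mx2 in Het minus WT (0.0012 with median of ratios, 0.066 with quantile scaling, -0.29 to 0.25 with a library left out). With a library left out, Rtp4 in Het CRISPRa minus Het ran from -0.0092 to 0.38, Znfx1 in Het minus WT from -0.23 to 0.073 and Samd9l in Het minus WT from -0.29 to 0.040. The cause was not tested. In mice no member passed under any setting. Few reads of Rsad2, Mx1, Bst2 and Ifitm3 in most libraries limit what can be said of them in nuclei. Depth there was 15.5 M to 20.1 M reads, close to the 15.5 M to 21.0 M of the Neuro2a libraries.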

Other observations

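Other genes of the interferon programme were read in the 9 libraries of nuclei beside the antiviral effectors, as values without a test of their pattern. Of 22 other restriction genes that passed the filter, 7 had their highest value in Het CRISPRa replicate 1 (Eif2ak2, Trim26, Trim56, Ddx60, Xaf1, Pnpt1 and Lgals3bp), while 5 had it in Het replicate 1 and 5 in Het replicate 3. Of 20 receptor and signalling genes 3 had their highest value in Het CRISPRa replicate 1, Irf7 and Socs1 among them, and 5 in Het replicate 1. Of 19 family relatives 1 had its highest value in Het CRISPRa replicate 1, Dtymk, while 9 had theirs in WT replicate 3. Of all genes tested 6.83% had theirs in Het CRISPRa replicate 1. The shares were 17.7% in Het replicate 1, 11.3% in Het replicate 3 and 17.3% in WT replicate 3. Irf7 had 4.48, 0.930 and 0.948 CPM in Het CRISPRa, 0.474, 0.424 and 1.09 CPM in Het and 0.895, 1.27 and 0.772 CPM in WT. Ddx60 had 2.41, 0.434 and 1.62 CPM in Het CRISPRa, 0.296, 0.484 and 0.298 CPM in Het and 0.119, 0.203 and 0.515 CPM in WT. Trim30a had 0.919, 0.124 and 0 CPM in Het CRISPRa and was listed at 0 in all Het and WT libraries. Socs1 had 1.84, 1.80 and 1.62 CPM in Het CRISPRa, 1.13, 1.33 and 0.647 CPM in Het and 1.13, 0.912 and 0.450 CPM in WT, so that its Het CRISPRa libraries were all above the others, as for 5.37% of genes against Het and 2.68% against WT. Slfn5 had 0.0574, 0 and 0 CPM in Het CRISPRa, was listed at 0 in Het and had 0.119, 0.152 and 0 CPM in WT. Sp100 had 0, 0 and 0.111 CPM in Het CRISPRa, was listed at 0 in Het and had 0, 0.101 and 0.193 CPM in WT. Stat2 had 156, 129 and 158 CPM in Het CRISPRa, 189.6, 136 and 133 CPM in Het and 151, 150.7 and 137 CPM in WT, with its highest value in a Het library. These genes were named by their change in Neuro2a cells, and Socs1 was singled out after its values were seen.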
